A study of Mus musculus with 2 samples.

Results

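The neuregulin genes Nrg1, Nrg2 and Nrg3 and the 4 genes of the epidermal growth factor (EGF) receptor family, Egfr, Erbb2, Erbb3 and Erbb4, were followed in the mouse hippocampus. These 7 genes, chosen by symbol, were 7 of the 55536 genes in the tables, and they carried 41 of the 141767 annotated transcripts. The tissue was the hippocampus, given in the labels as layer of hippocampus, of male B6CASTF1/J mice at an age of 14 days. B6CASTF1/J mice are hybrids of the C57BL/6J and CAST/EiJ strains, and the labels name no treatment and no engineered allele. The only group held 2 biological replicates of total RNA, for each of which the labels list 3 males and 300 ng of RNA, and no source used here says whether the RNA of the 3 males was pooled. With 1 group the study holds no comparison of conditions, so levels, transcript forms and differences between the 2 libraries are described.

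Neuregulins are ligands with an EGF-like domain that bind ErbB3 and ErbB4, and the bound receptors pair with each other or with ErbB2 to start signalling through the PI3-kinase and MAP kinase pathways. ErbB2 has no known ligand of its own, ErbB3 has an impaired kinase and depends on its partner, and EGFR binds EGF, TGF-alpha and related ligands instead. In the hippocampus ErbB4 is known mainly from GABAergic interneurons, ErbB3 from the oligodendrocyte lineage and EGFR from progenitors and astrocytes. Several of these genes make alternative transcripts that change where the ligand is held, which receptor it prefers or whether the receptor can be cut.

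Alternative exons with a known effect on the protein lie in Nrg1 and Erbb4, and they are shown because the shares of the transcript forms given further on rest on them. Each sequence is from the GENCODE M21 transcripts (mm10), reads 5′ to 3′ on the minus strand, and is the reference sequence rather than one read from these animals. Capitals mark the alternative exon and lower case the 15 bases of the neighbouring exons on each side. All these exons are coding. The Nrg1 alpha exon (chr8:31838261-31838328, 68 bases, from Nrg1-213) and the Nrg1 beta exon (chr8:31837670-31837728, 59 bases, from Nrg1-203) are alternative ends of the EGF-like domain, and beta forms are known to bind the receptors more tightly. The Erbb4 JM-a exon (chr1:68290243-68290317, 75 bases, from Erbb4-202) codes for the stretch next to the membrane that can be cleaved by the metalloprotease ADAM17. The JM-b exon (chr1:68290439-68290483, 45 bases, from Erbb4-205) takes its place in receptors that are not cleaved there. The CYT-1 exon (chr1:68043908-68043955, 48 bases, from Erbb4-201) adds a binding site for PI3-kinase to the inside of the receptor, and CYT-2 transcripts such as Erbb4-202 join the flanking exons without it.
Nrg1 alpha: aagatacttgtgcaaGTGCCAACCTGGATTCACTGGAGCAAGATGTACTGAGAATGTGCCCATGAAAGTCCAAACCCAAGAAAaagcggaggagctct
Nrg1 beta: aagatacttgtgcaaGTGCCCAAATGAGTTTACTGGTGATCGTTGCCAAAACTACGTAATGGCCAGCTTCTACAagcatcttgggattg
Erbb4 JM-a: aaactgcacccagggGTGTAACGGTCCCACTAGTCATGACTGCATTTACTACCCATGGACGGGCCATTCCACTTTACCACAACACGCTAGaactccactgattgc
Erbb4 JM-b: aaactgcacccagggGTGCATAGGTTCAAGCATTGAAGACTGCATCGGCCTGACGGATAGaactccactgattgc
Erbb4 CYT-1: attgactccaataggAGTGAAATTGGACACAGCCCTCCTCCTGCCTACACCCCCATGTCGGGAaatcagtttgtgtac
Erbb4 CYT-2 junction: attgactccaataggaatcagtttgtgtac
The first 15 bases are shared within each set. The flank after the exon is shared by JM-a and JM-b and differs between alpha and beta, whose exons are joined to different following exons in these 2 transcripts. The JM-a exon is 30 bases longer than the JM-b exon.

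Reads assigned to genes came to 31755578 in replicate 2 and 29144892 in replicate 1. Levels are in TPM, a unit of relative transcript abundance scaled by transcript length and by the total of each library, so genes can be compared with each other. Values are means ± SD over n = 2 libraries unless a library is named. Of the excitatory neuron markers 5 of 5 were detected, with a summed TPM of 2961 in replicate 2 and 2734 in replicate 1. No markers of hippocampal subfields were listed, so the tissue label was not checked against other regions rich in such neurons. Of markers for neighbouring tissue, 1 of 5 choroid plexus genes and 3 of 5 thalamic genes were detected. In bulk tissue, fewer cells of a type and less RNA per cell cannot be told apart.

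All 7 genes were detected. Detection means that each of the libraries gave a TPM of 1 or more, a mark that 26.8% of all genes in the tables reached. Nrg3 was the highest of them, followed by Erbb4, Egfr, Nrg1, Nrg2, Erbb3 and Erbb2. The family lay between the 71.7th percentile (Nrg3) and the 0.806th percentile (Erbb2) of the 12911 detected nuclear protein-coding genes, whose median TPM was 15.2. Erbb4 stood at the 54.0th percentile, Egfr at the 30.1st, Nrg1 at the 25.8th, Nrg2 at the 16.3rd and Erbb3 at the 7.10th.

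**Figure D1:**
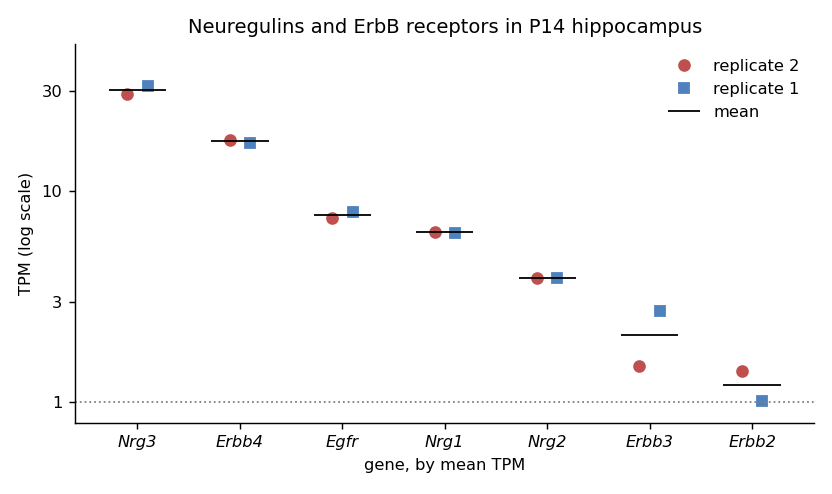
TPM of the 7 genes in each library on a log axis, with circles for replicate 2, squares for replicate 1 and a line at the mean; the dotted line is a TPM of 1. The libraries lie close together for 5 genes and apart for Erbb3 (1.48 in replicate 2 and 2.71 in replicate 1) and Erbb2 (1.41 in replicate 2 and 1.01 in replicate 1).

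Among the ligands, Nrg3 (ENSMUSG00000041014.17, chr14:38368952-39473088, minus strand, mm10), a neuregulin found mainly in neurons that acts through ErbB4, had a TPM of 29.05 in replicate 2 and 31.49 in replicate 1. Nrg1 (ENSMUSG00000062991.7, chr8:31814551-32884029, minus strand), the best studied neuregulin and a ligand of ErbB3 and ErbB4, had a TPM of 6.44 in replicate 2 and 6.35 in replicate 1. Nrg2 (ENSMUSG00000060275.13, chr18:36017652-36197380, minus strand), a close relative of Nrg1 that is also made by neurons, had a TPM of 3.90 in both libraries. In the gene table the 3 ligands kept the same order in both libraries and their ranges did not overlap. Nrg3 exceeded Nrg1 by 2.24 ± 0.097 on the log2 scale of TPM, or 4.73-fold, and exceeded Nrg2 by 2.96 ± 0.082, or 7.76-fold. Nrg1 exceeded Nrg2 by 0.71 ± 0.014. Nrg3 thus held 74.6% ± 1.20 of the summed TPM of the 3 neuregulins, Nrg1 15.8% ± 0.803 and Nrg2 9.62% ± 0.394.

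Among the receptors, Erbb4 (ENSMUSG00000062209.15, chr1:68032186-69108059, minus strand), the neuregulin receptor with both ligand binding and an active kinase, had a TPM of 17.57 in replicate 2 and 16.96 in replicate 1. Egfr (ENSMUSG00000020122.16, chr11:16752203-16918158, plus strand), the receptor for EGF and TGF-alpha, had a TPM of 7.51 in replicate 2 and 7.98 in replicate 1. Both were well above the remaining pair. Erbb3 (ENSMUSG00000018166.8, chr10:128567523-128589652, minus strand) had a TPM of 1.48 in replicate 2 and 2.71 in replicate 1. Erbb2 (ENSMUSG00000062312.5, chr11:98412470-98437716, plus strand), the shared partner receptor, had a TPM of 1.41 in replicate 2 and 1.01 in replicate 1. The order of Erbb3 over Erbb2 held in both libraries, but by 0.07 on the log2 scale in replicate 2 and by 1.42 in replicate 1. Erbb4 held 61.0% ± 2.57 of the summed receptor TPM, Egfr 27.3% ± 0.703, Erbb3 7.37% ± 2.94 and Erbb2 4.28% ± 1.07. The 3 neuregulins summed to a TPM of 39.4 in replicate 2 and 41.7 in replicate 1, and the 4 receptors to 27.97 in replicate 2 and 28.7 in replicate 1. The neuregulin sum exceeded the receptor sum by 0.52 ± 0.034 on the log2 scale. That receptor sum includes Egfr, which binds other ligands, and the neuregulin sum leaves those ligands out. All 11 ligand genes of the family summed to a TPM of 65.61 in replicate 2 and 66.75 in replicate 1.

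Members were compared in pairs by their log2 ratio of TPM. A pair counted as different if that ratio had 1 sign in the 2 libraries and its mean was over 0.5 and over 2 SD. No p-value goes with this, because the smallest two-sided p of an exact sign-flip test is 0.5 with 2 libraries. By this rule 18 of the 21 pairs of members differed. Of the 6 neighbours in the order of levels, 3 differed. Nrg3 lay above Erbb4 by 0.81 ± 0.12, Erbb4 above Egfr by 1.16 ± 0.098, and Nrg1 above Nrg2 by 0.71. The other 3 neighbours were not told apart. Egfr over Nrg1 was 0.28 ± 0.076, under the smallest ratio allowed. Nrg2 over Erbb3 was 0.96 ± 0.62 and Erbb3 over Erbb2 was 0.75 ± 0.96, within the spread between libraries. In the table with the kallisto layout the order of the 7 genes by mean TPM was unchanged, but the TPM of Nrg2 was 9.20 ± 0.230, 2.36-fold that in the gene table. Nrg1 over Nrg2 was then 0.05 ± 0.072, with Nrg2 slightly the higher in replicate 2, and they were not told apart, while Nrg2 over Erbb3 was 1.68 ± 0.62 and differed.

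The remaining ligand genes of the EGF family place the neuregulins beside the EGFR ligands. Of the 8 genes in this list, 2 were detected in the gene table. Tgfa, which codes for the EGFR ligand TGF-alpha, had a TPM of 19.2 in replicate 2 and 17.8 in replicate 1, second to Nrg3 among the ligands in both libraries. Hbegf, a ligand of both EGFR and ErbB4, had a TPM of 5.50 in replicate 2 and 5.58 in replicate 1, between Nrg1 and Nrg2. In the kallisto layout it was below Nrg2, at 7.62 in replicate 2 and 8.10 in replicate 1, against 9.36 in replicate 2 and 9.04 in replicate 1 for Nrg2. Egf itself had a TPM of 0.82 in replicate 2 and 0.99 in replicate 1, just under the mark. In the kallisto layout Egf was above the mark, at 1.51 in replicate 2 and 1.72 in replicate 1. Nrg4 had a TPM of 0.41 in replicate 2 and 0.32 in replicate 1, and Btc, which codes for betacellulin, had 0.17 in replicate 2 and 0.26 in replicate 1. The kallisto layout gave Nrg4 1.18 in replicate 2 and 0.912 in replicate 1, and Btc 0.591 in replicate 2 and 1.51 in replicate 1. Areg, the amphiregulin gene, had 2 counts in replicate 2 and 1 count in replicate 1, and Epgn, the epigen gene, had 2 counts in each library. Ereg, the epiregulin gene, had 0 counts in both libraries in the gene table. This allows a level of up to 3 counts, or 0.0945 CPM (counts scaled to the library) in replicate 2 and 0.103 CPM in replicate 1. Over all 11 ligand genes, Nrg3 held 45.7% ± 2.05 of the summed TPM, Tgfa 27.9% ± 1.86, Nrg1 9.66% ± 0.214, Hbegf 8.37% ± 0.0165 and Nrg2 5.89% ± 0.0718.

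**Figure D2:**
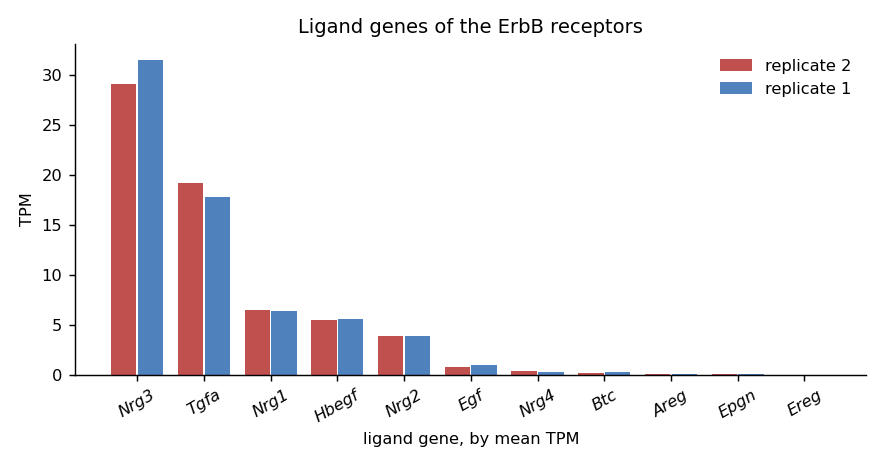
TPM of the 11 ligand genes of the ErbB receptors in replicate 2 (left bar of each pair) and replicate 1 (right bar), ordered by mean TPM. Nrg3 and Tgfa stand above Nrg1, Hbegf and Nrg2, and the other 6 genes stay under a TPM of 1 in the gene table shown here.

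The 2 libraries were then compared gene by gene on rounded counts by an exact binomial test, two-sided, with Benjamini-Hochberg adjustment over the 18332 genes with a mean count of at least 10 and a threshold of 0.05. It asks whether a gene differs between these 2 libraries by more than counting noise, and no conditions are compared. Of all genes tested, 22.7% passed, 10.2% lower in replicate 2 and 12.5% higher in replicate 2. Of the 7 members, 2 passed, Erbb3 and Nrg3, both lower in replicate 2.

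Erbb3 had 188 counts in replicate 2 and 323 in replicate 1, a log2 ratio of replicate 2 over replicate 1 of -0.92 (95% interval -1.19 to -0.66; exact binomial test, adjusted p = 6.2e-11), or 1.89-fold lower in replicate 2. Nrg3 had 2094 counts in replicate 2 and 2083 in replicate 1, which after scaling to the library is a log2 ratio of -0.13 (-0.22 to -0.04; exact binomial test, adjusted p = 0.0192), or 1.10-fold lower in replicate 2. The 2 calls thus differed widely in size, and the smaller one did not pass under 2 of 7 other settings. Scaled to spike-in totals, which moves the median of all genes by 0.11 on the log2 scale and puts 84.7% of calls on the side higher in replicate 2, against 54.9% of calls with the scaling used here, Nrg3 had -0.02 (adjusted p = 0.75) and Erbb4 had 0.15 and passed (adjusted p = 0.00078). With edgeR's exact test at a biological coefficient of variation of 0.1, which allows for spread of about the size seen over all genes between these 2 libraries (0.101), the adjusted p of Nrg3 was 1 and that of Erbb3 was 0.0244. Over the 7 other settings the adjusted p of Nrg3 ran from 0.0157 to 1 and that of Erbb3 from 4.9e-11 to 0.0244.

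The other 5 genes did not pass. Erbb4 had 2819 counts in replicate 2 and 2487 in replicate 1, with a log2 ratio of 0.04 (-0.04 to 0.12), and Egfr had 1133 counts in replicate 2 and 1021 in replicate 1, with 0.01 (-0.11 to 0.13). For these well counted receptors the intervals leave room for a log2 difference of up to 0.12 in Erbb4 and 0.13 in Egfr. Nrg1 had 414 counts in replicate 2 and 360 in replicate 1, with a log2 ratio of 0.06 (-0.14 to 0.27). Nrg2 had 180 counts in replicate 2 and 143 in replicate 1, with 0.19 (-0.13 to 0.52), and Erbb2 had 136 counts in replicate 2 and 100 in replicate 1, with 0.30 (-0.08 to 0.69). The last intervals are wide because the counts are low, and a difference of the size seen in Erbb3 lies outside all 5 of them. Intervals cover counting error only.

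Erbb3 moved with the markers of myelinating oligodendrocytes, the cells that form myelin sheaths. All 10 genes of this list, among them Mbp, Mog, Mag, Mobp, Cnp, Mal, Opalin, Ermn and Cldn11, were lower in replicate 2, with log2 ratios from -1.37 (Mal) to -0.60 (Cnp) and a median of -1.05, against a median of 0.0022 over all genes tested. Their summed TPM was 989 in replicate 2 and 1858 in replicate 1, and none was at 0. The Erbb3 ratio of -0.92 lies inside the range of these genes. Newly formed oligodendrocytes, the stage before myelination, had 4 of 4 markers lower in replicate 2 (Bcas1, Gpr17, Itpr2 and Enpp6; median -0.35), with a summed TPM of 103 in replicate 2 and 129 in replicate 1. Oligodendrocyte precursors had 1 of 4 markers higher (C1ql1, 0.30) and 0 lower, and Pdgfra, Cspg4 and Lhfpl3 were at 0.03, -0.08 and 0.06, with a summed TPM of 83.8 in replicate 2 and 75.7 in replicate 1.

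Genes of 2 neighbouring tissues were also lower in replicate 2. Of the choroid plexus list, 3 of 4 tested genes (Ttr -0.95, Otx2 -2.07 and Clic6 -1.22) passed and Aqp1 (-0.73) did not, while Kcnj13 was not tested; the summed TPM was 47.0 in replicate 2 and 89.0 in replicate 1. Of the thalamic list, 4 of 4 tested genes were lower (Prkcd -0.43, Tcf7l2 -1.33, Tnnt1 -2.74 and Lef1 -0.45), with a summed TPM of 27.7 in replicate 2 and 49.2 in replicate 1, and Gbx2 was listed at 0 in replicate 2. The part of any of these lists in the Erbb3 difference was not tested.

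**Figure D3:**
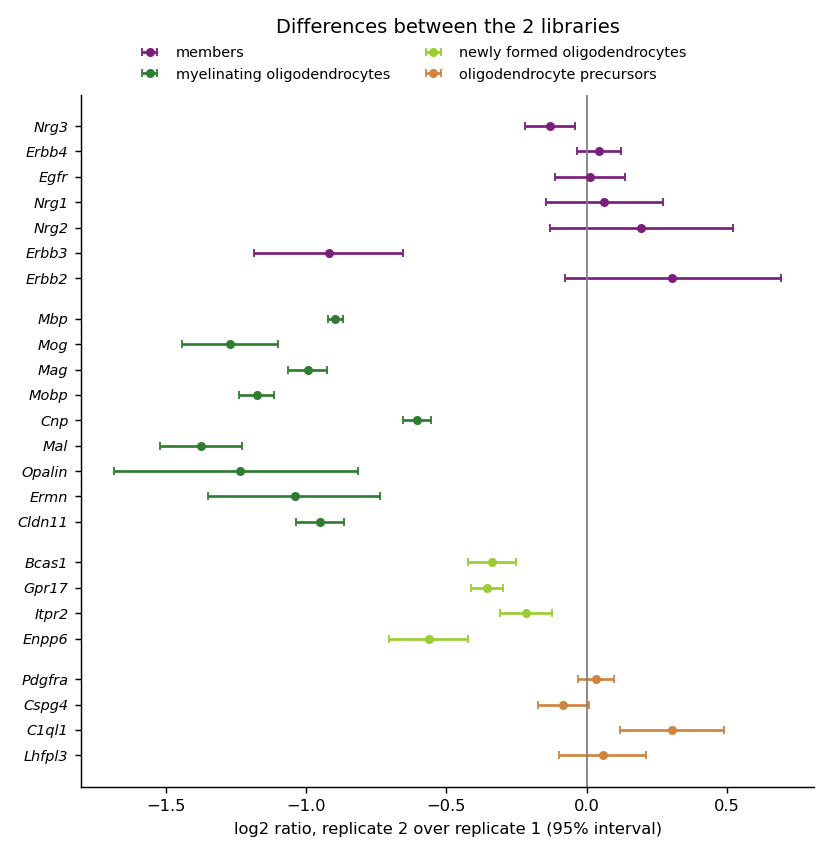
Log2 ratio of replicate 2 over replicate 1 with its 95% counting interval for the 7 members and for markers of 3 stages of the oligodendrocyte lineage. Erbb3 (-0.92) lies among the myelinating markers (-1.37 to -0.60), and the other members lie between -0.13 and 0.30.

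Erbb4 is set beside the interneuron markers because these cells are its best known site in the hippocampus. All 8 markers were detected. Of these, 3 were higher in replicate 2 (Sst 0.51, Lhx6 0.39 and Gad1 0.08), 1 was lower (Pvalb -0.45), and Gad2 (0.06), Slc32a1 (-0.02), Vip (0.25) and Dlx1 (0.11) did not pass. The summed TPM of the list was 433 in replicate 2 and 342 in replicate 1, with Sst at 204 in replicate 2 and 138 in replicate 1. Erbb4, at 0.04, did not pass beside them.

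Most members were spread over several transcripts. Nrg3 had 4, of which Nrg3-201, a full protein-coding form, held 55.5% ± 4.24 of the gene's TPM in the table with the RSEM layout, at 58.5% in replicate 2 and 52.5% in replicate 1. Nrg3-203 held 18.6% ± 7.27, at 13.5% in replicate 2 and 23.7% in replicate 1, and Nrg3-202 9.93% ± 4.85, at 13.4% in replicate 2 and 6.51% in replicate 1. Nrg3-202 was higher and Nrg3-203 lower in replicate 2, and the posterior standard deviation of their counts was 42.2 of 173 counts for Nrg3-202 and 49.9 of 171 counts for Nrg3-203 in replicate 2. In the kallisto layout the libraries lay closer, with Nrg3-203 at 20.7% in replicate 2 and 24.9% in replicate 1 and Nrg3-202 at 13.9% in replicate 2 and 11.6% in replicate 1. The retained-intron transcript Nrg3-204 held 15.99% ± 1.81.

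Nrg2 was led by Nrg2-203, its only complete protein-coding transcript, with 58.3% ± 9.25. Nrg2-201, a processed transcript of 899 bases with no coding sequence, held 22.2% ± 1.27. In the table with the kallisto layout Nrg2-201 led instead, with 42.2% ± 6.72, and Nrg2-203 held 38.2% ± 4.90. Counts for Nrg2-203 were nevertheless close, at 161 in replicate 2 and 120 in replicate 1 in the first table and 175 in replicate 2 and 132 in replicate 1 in the second. The count of Nrg2-201 differed more between the tables, with 15.4 in replicate 2 and 13.5 in replicate 1 in the first table, against 32.2 in replicate 2 and 36.4 in replicate 1 in the second table. A pair of other short transcripts reached the share of 10% set for naming, each in 1 library. Nrg2-202 held 0 of replicate 2 and 18.7% of replicate 1, against 0 of replicate 2 and 10.4% of replicate 1 in the kallisto layout. Nrg2-205 held 12.1% of replicate 2 and 0 of replicate 1, against 20.9% of replicate 2 and 7.94% of replicate 1 in the kallisto layout.

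Nrg1 had 18 transcripts, 12 of them protein-coding, and no single one held most of its TPM. Nrg1-203, a type I form, led with 28.1% ± 0.880, at 27.5% in replicate 2 and 28.7% in replicate 1. Nrg1-218, a type II form, held 20.1% ± 2.61, against 12.1% ± 1.58 in the kallisto layout. The retained-intron transcript Nrg1-204 held 17.6% ± 3.29 and the type III form Nrg1-211 9.97% ± 5.88. Nrg1-216, a short incomplete transcript, held 13.5% of replicate 1 from 5.34 counts and 0 of replicate 2, and Nrg1-217 held 15.0% of replicate 1 in the table with the kallisto layout alone.

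By first exon, types I and II carry an immunoglobulin-like domain and can be shed, while type III carries a cysteine-rich domain that keeps the ligand tethered to the axon membrane, the form known for its role in myelination. Type I transcripts held 39.5% of the typed Nrg1 TPM in replicate 2 and 42.1% in replicate 1. Type III held 36.8% in replicate 2 and 37.9% in replicate 1, and type II held 23.7% in replicate 2 and 20.0% in replicate 1. Types I and III were thus near each other and type II was lowest in both libraries. The type III share rests in part on Nrg1-204, a retained-intron transcript, and in replicate 1 also on Nrg1-216, which gave 0.86 of the type III TPM of 2.20 there and none of the 2.19 in replicate 2. The near-equal shares of type III thus come from different transcripts. Over protein-coding transcripts alone type I held 47.1% ± 0.819, type II 28.9% ± 5.02 and type III 23.9% ± 4.21. The kallisto layout gave 46.2% ± 0.490 for type I, 21.3% ± 9.91 for type II and 32.5% ± 9.42 for type III, the last from 39.2% in replicate 2 and 25.9% in replicate 1, with Nrg1-216 at 0 in both. Type I led in all 3 of these readings, and the order of types II and III differed between them.

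The beta exon printed above dominated the EGF-like domain of Nrg1. Beta transcripts held 97.0% in replicate 2 and 93.7% in replicate 1 of the TPM of transcripts with 1 of the 2 exons, and alpha transcripts 3.02% in replicate 2 and 6.32% in replicate 1. Alpha was carried by Nrg1-213, which had 9.89 counts in replicate 2 and 18.8 in replicate 1. In the kallisto layout alpha held 7.42% in replicate 2 and 10.1% in replicate 1. Beta was the large majority in both libraries and both tables.

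**Figure D4:**
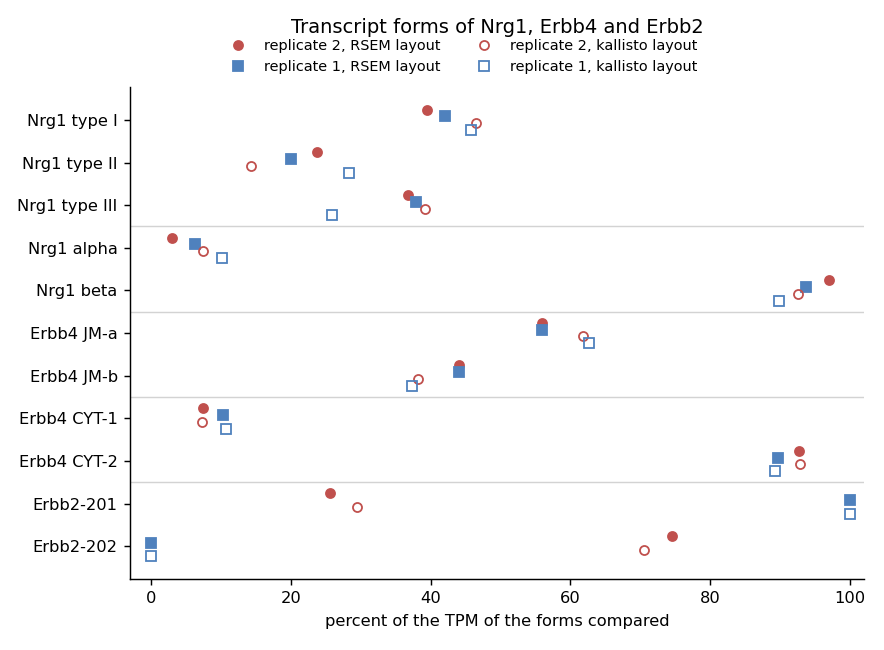
Percent of the TPM held by each transcript form in replicate 2 (circles) and replicate 1 (squares), in the tables with the RSEM layout (filled) and the kallisto layout (open). Shares are within each set divided by a grey line for Nrg1 and Erbb4, and of the whole gene for Erbb2; Erbb2-202 holds 74.5% of Erbb2 in replicate 2 and 0 in replicate 1.

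Erbb4 had 5 transcripts and was divided between a pair of them. Erbb4-202, with the JM-a and CYT-2 forms, held 50.9% in replicate 2 and 48.0% in replicate 1. Erbb4-205, with the JM-b exon, held 43.2% in replicate 2 and 42.2% in replicate 1. Of the transcripts that carry 1 of the 2 juxtamembrane exons, JM-a held 55.9% and JM-b 44.1% in both libraries (± 0.0358). In the kallisto layout JM-b held 37.8% ± 0.621, so JM-a had the larger share in both tables. The 2 forms rest on unequal evidence. Erbb4-205 is annotated as incomplete at its end and spans 2196 bases, all of them coding, and its share came from 342 counts in replicate 2 and 303 in replicate 1. Erbb4-202 spans 12037 bases and had 2293 counts in replicate 2 and 1958 in replicate 1. Length scaling of such unequal transcripts enters the 44.1% directly. Erbb4-205 is also the only annotated transcript with the JM-b exon, and it stops before the site of the CYT-1 exon. In both tables, reads beyond its end could be counted only for other transcripts of the gene. Which of the 2 forms leads can therefore not be decided from these shares.

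Shares for the CYT-1 exon compare whole transcripts, and the transcript with it was the minor form. Erbb4-201 spans 11782 bases and Erbb4-202 12037, although Erbb4-201 adds the exon of 48 bases. The 2 thus also differ elsewhere, and reads on the exon alone were not counted. Only transcripts with both exons that flank the CYT-1 exon were compared. Of these, Erbb4-201 with CYT-1 held 7.36% in replicate 2 and 10.3% in replicate 1. Erbb4-202 with CYT-2 held 92.6% in replicate 2 and 89.7% in replicate 1. The kallisto layout gave 7.22% for CYT-1 in replicate 2 and 10.7% in replicate 1. Erbb4-201 had 179 counts in replicate 2 and 220 in replicate 1, with a posterior standard deviation of 63.9 counts in replicate 2 and 61.8 in replicate 1, so the mean share of 8.81% ± 2.06 carries an assignment error beyond the spread between libraries. Erbb4-205 stops before these flanking exons and is in neither share. The gene also holds 8 annotated genes within its span on its own strand, with 46 counts together in replicate 2 and 60 in replicate 1, none of them with a mean TPM of 1 or more.

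Egfr was led by Egfr-201, the full-length receptor, with 60.6% in replicate 2 and 54.0% in replicate 1. Egfr-202, a protein-coding transcript of 2943 bases that ends before the exons for the transmembrane segment and the kinase, held 29.8% in replicate 2 and 27.6% in replicate 1. Such short forms are known as soluble EGFR. It had 137 counts in replicate 2 and 126 in replicate 1, against 987 in replicate 2 and 879 in replicate 1 for Egfr-201. In the kallisto layout its share was 15.8% in replicate 2 and 17.8% in replicate 1, from 102.9 counts in replicate 2 and 83.3 in replicate 1, while the processed transcript Egfr-204 took 34.5% in replicate 2 and 23.4% in replicate 1 of Egfr there, against 8.41% in replicate 2 and 13.0% in replicate 1 in the first table. The full-length form led in both tables and both libraries.

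Erbb2 was the member whose transcripts differed most between the libraries. Erbb2-201, the coding transcript, held 25.5% of Erbb2 in replicate 2 and 100% in replicate 1. Erbb2-202, a processed transcript without coding sequence, held 74.5% in replicate 2 and 0 in replicate 1. Erbb2-202 keeps the intron of 81 bases between exons 17 and 18 (chr11:98433050-98433130). It had 97.8 counts in replicate 2 with a posterior standard deviation of 16.3, and 0 counts in replicate 1 with one of 10.5, while the whole gene had 136 counts in replicate 2 and 100 in replicate 1. The table with the kallisto layout gave 70.6% in replicate 2 and 0.0027% in replicate 1. The difference has 1 library on each side and was not tested. Erbb3 has a single annotated transcript, Erbb3-201, so its gene value and its transcript value are one.

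Beyond the ligands, 3 lists follow the pathway from cleavage to the nucleus, and together with the ligand list they hold 55 genes, of which 51 were tested. Of those, 16 passed the test between libraries, 12 higher and 4 lower in replicate 2, a share to be read beside the 22.7% of all genes. With a mean count of at least 50 required, 4026 of 14213 genes passed and the same 16 pathway genes were called, so the share over all genes depends on the count level. Among the 4 tested other ligands, Tgfa was higher in replicate 2 (log2 ratio 0.18, exact binomial test, adjusted p = 0.0030) and Egf (-0.43), Hbegf (-0.16) and Btc (-0.01) did not pass. No gene of these lists that passed had a log2 ratio of 0.5 or more in size. The largest was Akt2 at 0.36, named here after its value was seen.

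All 11 genes for the cleavage of neuregulins and their receptors were detected, with a median log2 ratio of 0.03, and Adam10 (0.15) alone passed. The 3 highest were Bace1, the beta-secretase that cuts Nrg1 type III, with a TPM of 45.8 in replicate 2 and 40.5 in replicate 1, and the gamma-secretase subunits Aph1a, with 39.8 in replicate 2 and 31.9 in replicate 1, and Psenen, with 33.1 in replicate 2 and 32.3 in replicate 1. All 3 lay above the TPM of Nrg3.

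All 10 receptor partners and regulators were detected, with a median log2 ratio of -0.01. Dlg4, which codes for the postsynaptic scaffold PSD-95 that binds ErbB4, had a TPM of 409 in replicate 2 and 377 in replicate 1 and was higher in replicate 2 (log2 ratio 0.09). Dlg2, a related scaffold, had 134 in replicate 2 and 133 in replicate 1, and Rnf41, which codes for the ubiquitin ligase Nrdp1 that lowers ErbB3, had 31.3 in replicate 2 and 28.2 in replicate 1. Neither of these passed. Errfi1, which codes for an inhibitor of EGFR, was the gene lower in replicate 2 (-0.36), with a TPM of 12.7 in replicate 2 and 15.5 in replicate 1.

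All 26 downstream genes were detected, with 9 higher and 3 lower in replicate 2 and a median log2 ratio of 0.07. Among those with the highest levels was Ncor1, a corepressor that joins the released inner part of ErbB4, with a TPM of 121 in replicate 2 and 112 in replicate 1. Ncor1 was higher in replicate 2 (log2 ratio 0.09). The 3 genes lower in replicate 2 were Shc1 (-0.32), Stat5b (-0.27) and Pik3r1 (-0.11).

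**Figure D5:**
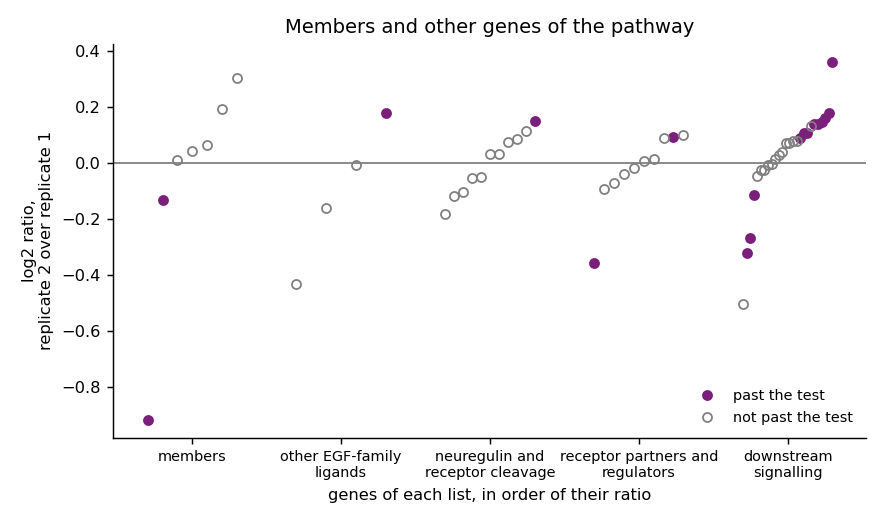
Log2 ratio of replicate 2 over replicate 1 for each tested gene of 5 lists, filled where it passed the test between libraries. Erbb3 (-0.92) is the lowest point, and genes of the other lists that passed lie between -0.36 and 0.36.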

How the data were processed

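Total RNA of 2 libraries of 1 group was used. The authors deposited expected counts, not normalised, for genes and transcripts. The deposited TPM values were scaled by the authors to a fixed sum per table, of which spike-ins are a part. Each transcript's share of its gene, in percent, is a column of 1 transcript table, per the file headers. The posterior standard deviation of a count is a deposited signal of how uncertainly reads were assigned, in reads. Column layouts are those of RSEM (gene table and the first transcript table) and kallisto (the second), per the file headers. Deposited notes and the labels give build mm10 and annotation M21. The aligner, quantifiers and settings were not given in the sources used here.

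Of 81881 entries per gene table, 55536 were genes, 97 spike-ins and 26248 numbered entries that name no gene. The numbered entries took 9.4e-06% of counts in replicate 2 and 2.67e-05% in replicate 1 and were left out. All gene identifiers matched the annotation. Expected counts were rounded for the binomial test, library sizes scaled by edgeR's TMM factors (edgeR 4.0.16, limma 3.58.1, R 4.3.3), and log2 ratios given a prior count of 0.5. The test was tried on simulated data with counting noise alone, which is what it assumes. That trial does not cover spread between libraries beyond counting noise, as seen here. No quasi-likelihood test was run, since 1 group has no contrast. Intervals of ratios are exact 95% Clopper-Pearson intervals. Other values used Python 3.11.15, numpy 2.4.6, scipy 1.17.1, pandas 2.3.3 and matplotlib 3.10.9. Exon forms were assigned by whether a transcript holds the exon, and transcripts with both or neither were left out. Sequences are GENCODE M21 transcript sequences.

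The text names all 7 members, every other ligand gene, of the other pathway lists the 3 genes with the highest mean TPM and those past the test with a log2 ratio of at least 0.5 in size, all genes of a cell type list set beside a member, nested genes with a mean TPM of at least 1, and transcripts with at least 10% of a member in either table. Some genes that this rule selects are counted in their lists but not reported here by name. Adam10, Errfi1, Shc1, Stat5b, Pik3r1 and Akt2 were named after their values were seen. The members, lists and thresholds were chosen with earlier results of these data known. The labels do not say whether the replicates came from separate dissections, so adjusted p-values measure only the difference between these libraries.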

Additional observations from a re-analysis of the deposited data

How the results depend on the processing

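The number of members past the test between libraries was 2 under 6 of 7 alternatives and 1 under edgeR's exact test with the coefficient of variation set to 0.1. Under spike-in totals these 2 were Erbb3 and Erbb4 in place of Nrg3. Erbb3 passed, lower in replicate 2, under all 7 alternatives, with log2 ratios from -0.92 to -0.81. Of the pathway genes 29 passed with spike-in totals, 28 of them higher in replicate 2, and 0 with edgeR's exact test, where 0 had an unadjusted p under 0.05 (19 in the binomial test). The other 5 alternatives gave 16. These counts moved with those of all 18332 genes tested. Of these, 4167 passed in the binomial test, 6516 with spike-in totals (84.7% of them higher in replicate 2) and 173 with edgeR's exact test. At a TPM of at least 5, 4 members were detected. With a minimum log2 ratio of 1, only 1 of 6 neighbours differed. Shares of Nrg1 type I moved to 46.2% (kallisto layout) and 47.1% (protein-coding transcripts alone), of type III to 32.5% and 23.9%, of type II to 28.9% in protein-coding transcripts, of alpha to 8.77% in the kallisto layout and of Erbb4 JM-b to 37.8%. Those exon-form alternatives were chosen after seeing the data.

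TPM values of all 7 members were 1.34-fold to 2.36-fold higher in the kallisto layout and 2.23-fold to 2.26-fold higher when rescaled to nuclear protein-coding genes, which held 45.9% of TPM in replicate 2 and 43.3% in replicate 1. Leaving out 1 library kept all 7 members detected. No paired analysis was possible because the 2 libraries belong to a single group. With 2 libraries the spread between samples is poorly known, and at 100 to 323 counts Erbb2, Nrg2 and Erbb3 have the widest intervals.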
